A study of Mus musculus with 8 samples.

Results

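Laminins and integrins were described in whole-liver RNA. Members were all genes whose symbol names a laminin chain (Lama, Lamb or Lamc with a number) or an integrin alpha or beta subunit (Itga or Itgb), and 37 of the 22052 genes in the table met this rule. They comprised 11 laminin chains, 20 epithelial or matrix integrin subunits and 6 leukocyte integrin subunits (Itgal, Itgam, Itgax, Itgae, Itgb2 and Itgb7). Livers came from 8 male C57BL/6 mice aged 8 weeks, all of which had been given corn oil by intraperitoneal injection. The 4 controls had the genotype Zfp36l1fl/fl/Zfp36l2fl/fl, and the 4 double knockout (dKO) mice carried the same floxed alleles with Alb-Cre, in which the albumin promoter drives Cre in hepatocytes. The products of both genes attach to AU-rich elements of mRNAs and speed up their decay. Levels are normalised read counts, that is, reads per gene divided by 1 size factor per library. Values of single livers are given in the order of mice 1 to 4, and other levels as mean ± SD (n = 4). A log2 change is the difference of group means of log2(value + 0.5), dKO minus control, with its standard error (SE). The added 0.5 draws the log ratios of low values towards 0, and a log2 change need not equal the log2 of a fold of means.

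The deleted genes checked the labels. Zfp36l1 read 1321, 1336, 1182 and 1642 among controls, against 214, 213, 209 and 267 among dKO livers (log2 change -2.60 with an SE of 0.11, adjusted p = 1.7e-08), and Zfp36l2 fell to 50.3% of controls (log2 change -0.96, adjusted p = 0.000689). For each, the exact permutation test (2-sided, 70 ways to assign 8 livers) gave p = 0.0286, the smallest it allows. Libraries held 15253827 to 19299556 reads in genes. The summed level of 5 hepatocyte markers (Alb, Apoa1, Ttr, Cps1 and Hnf4a), 985732 to 1123255 in controls and 1003821 to 1070351 in dKO livers, showed the labelled tissue. Of the 5, 2 (Ttr and Hnf4a) were lower in dKO livers, against 17.0% of all genes tested. Control 4 lay nearer to the dKO livers than the other controls on the first principal component, at -43.3 against -76.5 to -67.7 in controls 1 to 3 and 57.5 to 68.9 in dKO livers.

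Laminins are secreted heterotrimers of 1 alpha, 1 beta and 1 gamma chain that polymerise into the sheet of the basement membrane. Integrins are transmembrane heterodimers of 1 alpha and 1 beta subunit that tie cells to laminin, collagen, fibronectin and other matrix proteins, and in leukocytes to receptors on other cells. Normal liver sinusoids lack a continuous laminin basement membrane, whereas bile ducts, larger vessels and nerves have one.

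Because the deleted proteins bind AU-rich elements, the 3' untranslated regions (UTRs) of the members were searched on the sense strand for TATTTAT, the core of that element. The annotation (GENCODE M21, GRCm38, the assembly mm10 names) gave a 3' UTR for all 37 members, and 17 of them (45.9%) held 27 TATTTAT heptamers, against 30.1% of 15413 tested protein-coding genes. The longer TTATTTATT, which contains the heptamer, stood in the 3' UTRs of 3 members, Itga2, Itga6 and Itgb1, or 8.11%, against 8.26% of all. The median 3' UTR length was 1125 bases in members and 1166 bases in all tested protein-coding genes. The heptamer stood in 13 of the 26 members that were higher in dKO livers, 1 of the 3 that were lower (Lama1) and 3 of the 8 called neither way. Over all tested protein-coding genes it stood in 33.1% of those higher, 26.7% of those lower and 29.9% of those called neither way. Sites are shown for the 3 members with the longer element, for the laminin chains Lama5 and Lamc1, which rose, and for Lama1, which fell. They were chosen with the values known, are read from the transcript strand 5′ to 3′ and carry the heptamer in capitals.
Itga6, chr2:71853782-71853810, plus strand: ttgcttggattTATTTATttttgttattt
Itga2, chr13:114835818-114835846, minus strand: attgataatctTATTTATtaactaagttt
Itgb1, chr8:128733153-128733181, plus strand: ttaactgaagtTATTTATtaaaataaaaa
Lama5, chr2:180176425-180176453, minus strand: aacagatattaTATTTATactttgttcct
Lamc1, chr1:153218940-153218968, minus strand: aaacagtatttTATTTATaataaaatctg
Lama1, chr17:67822568-67822596, plus strand: ggaaaatgctgTATTTATgttgaactaaa
A heptamer is a match of letters and was not tested as a binding site here. The site of Itga6 began at base 152 after the stop codon, that of Itga2 at base 650 and that of Itgb1 at base 1076, in the longest transcript holding each. In Lama5 and Lama1 it lay within short 3' UTRs of 174 and 198 bases.

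The comparison asked which laminin and integrin mRNAs differed between dKO and control livers. All 37 members passed the filter on low values. In dKO livers 26 members were higher (limma adjusted p under 0.05), against 21.2% of all 20055 genes tested, 3 were lower, against 17.0% of all, and 8 were called neither way. Calls in either direction covered 29 members and 38.2% of all genes. Past 2-fold, 16 members were higher and 2 lower, against 12.8% and 3.97% of all genes. The 4 dKO values lay above all 4 control values for 22 members, against 19.4% of all genes, and below them for 3, against 16.9% of all, or 36.4% of all genes in either direction. The median change was 0.94 on the log2 scale over the members and 0.03 over all genes tested. Whole liver is a mixture, and in it more or fewer cells of a type cannot be told apart from more or less RNA per cell.

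Of the 5 laminin alpha chains, which bear the domains that bind cells, 3 rose and 2 fell. Lama5, an alpha chain of mature epithelial and vascular basement membranes (chromosome 2, 180176373 to 180225859, minus strand), read 160.2, 122, 87.3 and 167 among controls, against 472, 491, 617 and 653 among dKO livers. Every dKO liver was above the highest control, and the mean rose 4.16-fold (log2 change 2.08 with an SE of 0.19, adjusted p = 4.2e-06). Lama2, the chain of muscle and nerve laminin, read 48.3, 48.2, 53.6 and 69.8 among controls, against 116, 171, 228 and 154 among dKO livers, again without overlap (log2 change 1.57, adjusted p = 8.8e-05). Lama4, the chain of endothelial and mesenchymal basement membranes, read 89.3, 107, 81.0 and 146 among controls, against 178, 170.1, 199 and 206 among dKO livers (log2 change 0.86, adjusted p = 0.00196). For Lama4 the highest control was control 4, at 146, and the lowest dKO liver was at 170.1. The other alpha chains fell. Lama1, known as the alpha chain of the embryo, read 95.5, 85.2, 117 and 66.3 among controls, against 54.3, 55.5, 34.1 and 61.5 among dKO livers, so that the highest dKO liver lay just under the lowest control (log2 change -0.82, adjusted p = 0.014). Lama3, an alpha chain of epithelial basement membranes (chromosome 18, 12333819 to 12583013, plus strand), read 53.4, 48.2, 55.7 and 93.8 among controls, against 21.1, 11.1, 46.0 and 26.1 among dKO livers (log2 change -1.37, adjusted p = 0.0126). Its highest dKO liver, at 46.0, lay just under its lowest control, at 48.2, and its log2 change was -1.16 without control 4 (adjusted p = 0.0478).

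The beta and gamma chains described here also split. Lamc1, the gamma chain of most laminins (chromosome 1, 153218922 to 153332786, minus strand), read 379, 343, 363 and 395 among controls, against 769, 869, 926 and 917 among dKO livers. It rose 2.35-fold (log2 change 1.23 with an SE of 0.09, adjusted p = 5.4e-07). Lamb1, its usual beta partner, read 171, 126, 186 and 219.6 among controls, against 292, 383, 403 and 352 among dKO livers (log2 change 1.04, adjusted p = 0.00028). Lamb2, the beta chain of vascular and neuromuscular laminins, read 194, 166, 124 and 278 among controls, against 316, 205, 296 and 344 among dKO livers, and dKO 2 lay below control 4 (log2 change 0.64, adjusted p = 0.0376). The call for Lamb2 was lost in 8 of 18 alternatives, namely without control 1, 2 or 3, without dKO 1, 3 or 4, with quantile normalization and with robust variances (adjusted p up to 0.118). Lamb3, a beta chain of epithelial basement membranes, read 91.4, 89.3, 72.6 and 86.9 among controls, against 75.4, 74.0, 72.4 and 69.8 among dKO livers and did not pass the test (log2 change -0.22, adjusted p = 0.296). With quantile normalization Lamb3 was lower (log2 change -0.53, adjusted p = 0.0161). Lamc3, a gamma chain known from brain, retina and nerve (chromosome 2, 31887291 to 31946539, plus strand), fell furthest of all members. It read 62.6, 56.4, 36.8 and 67.5 among controls, against 18.1, 6.47, 10.2 and 2.79 among dKO livers, and the dKO mean was 16.8% of the control mean (log2 change -2.74 with an SE of 0.47, adjusted p = 0.000566). The dKO livers held 40 reads of Lamc3 together, and dKO 4 lay at the floor of 3 counts, which limits the size of this fall.

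**Figure D1:**
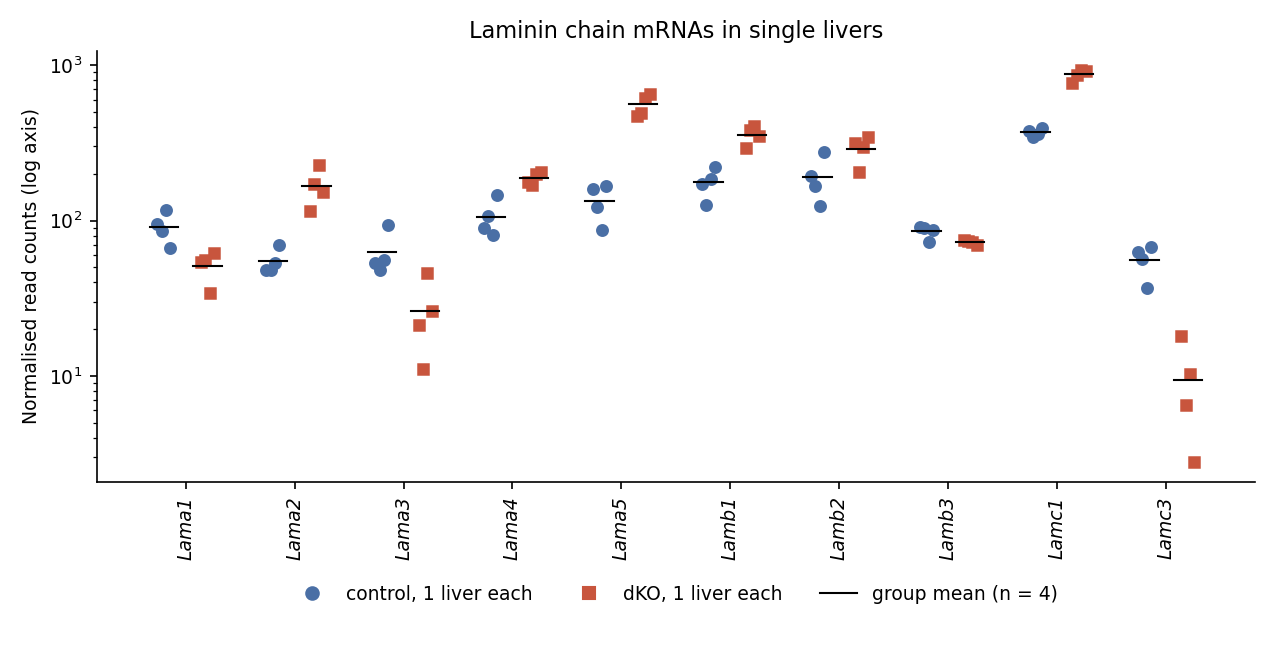
Levels of 10 laminin chain mRNAs (normalised read counts, log axis) in each of 4 control livers (circles) and 4 dKO livers (squares), with a bar at each group mean. Lama2, Lama4, Lama5, Lamb1 and Lamc1 lie higher in every dKO liver than in any control, Lama1, Lama3 and Lamc3 lie lower, and Lamb2 and Lamb3 overlap.

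The make-up of the alpha and beta chain pools was compared per length, dividing each level by the length of the longest annotated protein-coding transcript. The summed level of the 5 alpha chains went from 50.5 ± 7.90 to 105 ± 14.2 normalised read counts per kilobase (mean ± SD, n = 4). Within that sum the share of Lama5 went from 23.2% ± 4.66 to 46.4% ± 1.97, with 17.4% to 28.7% in controls and 44.9% to 49.3% in dKO livers. Lama1 went from 19.6% ± 6.77 to 5.23% ± 1.51 and Lama3 from 11.6% ± 2.06 to 2.28% ± 1.06. The share of Lama4, the largest in controls, was 30.2% to 39.1% in controls and 27.7% to 32.5% in dKO livers. Among beta chains Lamb3 went from 21.9% ± 3.85 to 11.7% ± 1.23, while the share of Lamb2 overlapped, at 31.9% to 46.9% in controls and 30.9% to 46.0% in dKO livers. With merged exon length in place of transcript length the Lama5 share was 22.0% to 35.8% in controls and 57.9% to 61.9% in dKO livers, and Lama5 was then the largest alpha chain by mean share in both groups. Shares follow from the levels above and carry no test of their own.

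**Figure D2:**
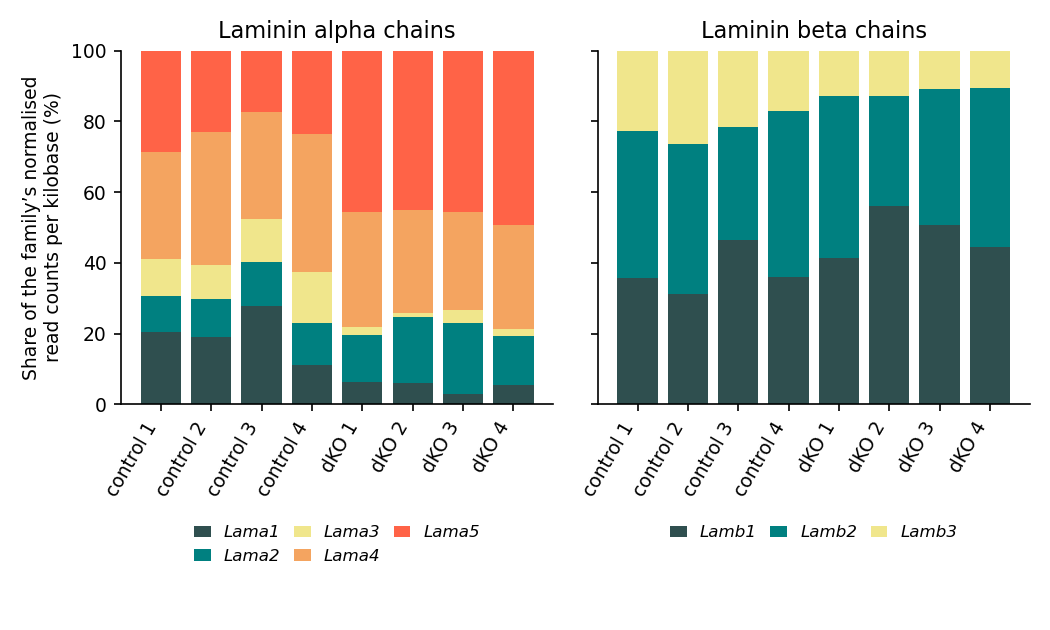
Share of each chain (%, y axis) in the summed normalised read counts per kilobase of the laminin alpha and beta chains in each liver (x axis). Lama5 makes up 44.9% to 49.3% of the alpha chains in dKO livers against 17.4% to 28.7% in controls.

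Other basement membrane genes were counted from a list. Of 14 genes 10 rose, against 21.2% of all genes tested, 1 fell, against 17.0% of all, and 3 did neither. The median change was 1.68. Nid1, the nidogen that links laminin to type IV collagen, read 355, 401, 346 and 438 among controls, against 1779.9, 2126, 1993 and 2387 among dKO livers (log2 change 2.42, adjusted p = 1.4e-08). The perlecan gene Hspg2 rose from 861 ± 81.2 to 1422 ± 218 and the collagen-binding matricellular protein gene Sparc from 1434 ± 562 to 5405 ± 598. Col18a1, the precursor of endostatin, fell from 24222 ± 1542 to 16419.8 ± 1343 (log2 change -0.56, adjusted p = 0.000354), a call lost with quantile normalization (adjusted p = 0.0582). Col4a1 and Col4a2, the network-forming collagen chains, rose by 2.63 and 2.60 on the log2 scale. Of 5 laminin receptors that are not integrins, 2 rose and 2 fell, too few genes to set against these shares. Bcam, a receptor of laminin alpha 5, rose from 128 ± 46.0 to 225 ± 42.0 (log2 change 0.86, adjusted p = 0.0106) with overlap, a call lost without dKO 1 (adjusted p = 0.0521), and the syndecan Sdc1 rose from 5857 ± 548 to 9291 ± 1629.7. The syndecans Sdc2 and Sdc4 fell by 0.46 and 0.66 on the log2 scale, and the dystroglycan gene Dag1 stood at 2257 ± 75.5 and 2081 ± 104 (log2 change -0.12, adjusted p = 0.192). Though Dag1 did not pass, its highest dKO liver, at 2166, lay just under its lowest control, at 2174.

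Other cell types that a whole liver holds were followed through marker lists. Of all genes tested 21.2% were higher and 17.0% lower. The counts of smooth muscle and mesothelial markers that rose lay near that share of higher genes. Of 7 bile duct markers 6 rose, with a summed level of 443 to 530.1 in controls and 651 to 937 in dKO livers. Of 6 stellate cell markers 3 rose, at 1332 to 2175 in controls and 2226 to 3129 in dKO livers, and of 6 endothelial markers 2 rose and 1 fell, at 4173 to 5058 in controls and 4758 to 6212 in dKO livers. Of 5 smooth muscle markers 1 rose, at 199.8 to 1473 in controls and 715 to 1535 in dKO livers, and of 4 mesothelial markers 1 rose, at 23.1 to 298 in controls and 119 to 274 in dKO livers. No marker of these lists was at 0 in all livers. The part of these cells in the laminin changes was not tested.

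Of the 20 epithelial or matrix integrin subunits 14 rose, against 21.2% of all genes tested, and 0 fell, against 17.0% of all. The other 6 did neither, and the median change over the 20 was 0.73. With an unadjusted p under 0.05, 0 of the 20 were lower, and edgeR and DESeq2 also called 0 lower. The shares of all genes under those settings are not given here. Itgb1, the beta subunit shared by most matrix integrins (chromosome 8, 128685654 to 128733200, plus strand), read 3752, 4081, 3584 and 3936 among controls, against 5302, 5422, 5609.5 and 5379 among dKO livers. The groups were tight and apart, and the mean rose 1.41-fold (log2 change 0.50 with an SE of 0.07, adjusted p = 9.3e-05). Itgb1 was the most abundant member per length, at 1006 normalised read counts per kilobase in controls and 1423 in dKO livers, and its share of all beta subunits was 59.6% to 63.6% in controls and 57.7% to 62.7% in dKO livers.

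Of the laminin-binding alpha subunits described in this paragraph (Itga3, Itga6 and Itga7), Itga6 changed most. Itga6 (chromosome 2, 71745616 to 71858416, plus strand), whose product pairs with beta 1 or beta 4, read 66.7, 67.7, 57.8 and 93.8 among controls, against 305, 335, 314 and 288 among dKO livers. All dKO livers were at least 288 and all controls at most 93.8, a 4.34-fold rise of the mean (log2 change 2.13 with an SE of 0.15, adjusted p = 5.6e-07). Itgb4, its epithelial partner in hemidesmosomes, read 12.3, 16.4, 13.7 and 19.4 among controls, against 47.3, 28.7, 26.4 and 49.3 among dKO livers (log2 change 1.23, adjusted p = 0.00738), and the call was lost with quantile normalization (adjusted p = 0.0563). Per length, Itga6 exceeded Itgb4 5.94 to 7.80 times in controls and 8.40 to 17.1 times in dKO livers. These ratios rest on transcript lengths of 4310 bases for Itga6 and 6208 for Itgb4. With merged exon lengths of 9025 and 7015 bases they would be smaller. Itga3, which binds laminins with alpha 3 or alpha 5 chains, rose from 188 ± 13.7 to 282 ± 26.3 without overlap (log2 change 0.58, adjusted p = 0.000975). Itga7, known from muscle, stood at 226 ± 33.6 and 282 ± 45.7 (log2 change 0.32, adjusted p = 0.0954).

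Collagen-binding subunits differed among themselves. Itga2 and Itga11 rose from very low counts. Itga2, the receptor subunit of epithelia and platelets for fibrillar collagen, read 3.08, 5.13, 0 and 2.29 among controls, against 17.1, 18.5, 32.4 and 27.0 among dKO livers, from 10 control reads and 104 dKO reads in all (log2 change 3.35, adjusted p = 0.00174). Itga11, a subunit of fibroblasts, read 3.08, 5.13, 7.36 and 4.57 among controls, against 14.1, 12.9, 19.6 and 31.7 among dKO livers (log2 change 1.82, adjusted p = 0.00516). Itga1, known from sinusoidal and smooth muscle cells, changed least of the 3 that rose. It read 337, 325, 343 and 358 among controls, against 351, 500.2, 596 and 482 among dKO livers, and dKO 1, at 351, lay below control 4 (log2 change 0.48, adjusted p = 0.0143). Itga10, the cartilage subunit, stood at 36.0 ± 9.80 and 36.0 ± 7.06 (log2 change 0.01, adjusted p = 0.975).

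Of the subunits that bind fibronectin, vitronectin or latent TGF-beta and are described in this paragraph, Itga5, Itgav, Itgb5, Itgb6 and Itgb8 rose and Itga8 did not pass. Itgb3 and Itga2b, given below with the platelet integrin, did not pass either (for Itgb3 log2 change 0.42, adjusted p = 0.0867). Itga4, given below with Itga9, rose. Itga5, the fibronectin receptor subunit, read 597, 579.7, 638 and 563 among controls, against 995, 1148, 801 and 1081 among dKO livers (log2 change 0.75, adjusted p = 0.000137). Itgav, shared by several receptors of vitronectin, osteopontin and latent TGF-beta, read 454, 530.4, 491 and 479 among controls, against 635, 880.2, 842 and 871 among dKO livers (log2 change 0.71, adjusted p = 0.000234). In neither gene did the groups overlap. Its beta partner Itgb5 rose from 1626 ± 105 to 2057 ± 118 (log2 change 0.34, adjusted p = 0.00299), and Itgb8 rose from 14.8 ± 5.30 to 29.2 ± 6.73 (log2 change 1.01, adjusted p = 0.0406). The call for Itgb8 was lost in 7 of 18 alternatives, among them those without control 3, control 4, dKO 1, dKO 2 or dKO 3 and with quantile normalization, with adjusted p up to 0.248. Itgb6, the epithelial activator of latent TGF-beta, read 1.03, 1.03, 0 and 6.86 among controls, against 6.03, 12.0, 8.52 and 11.2 among dKO livers, most of its 8 control reads being in control 4. Its log2 change of 2.49 (SE 0.73, adjusted p = 0.0168) became 3.19 without control 4, and its adjusted p was 0.0507 without dKO 2. Itga8, known from mesenchymal cells, read 108, 172, 187 and 186 among controls, against 165, 282, 367 and 171 among dKO livers with overlap (log2 change 0.54, adjusted p = 0.116).

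Itga9 and Itga4, the related subunits that bind osteopontin and VCAM-1, both rose. Itga9 read 395, 408, 331 and 419.7 among controls, against 635, 671, 783 and 802 among dKO livers (log2 change 0.89 with an SE of 0.11, adjusted p = 3.3e-05), and Itga4, which leukocytes also use, read 117, 70.8, 65.2 and 117 among controls, against 152, 189.5, 248 and 267 among dKO livers (log2 change 1.22, adjusted p = 0.00114). In both genes all dKO livers lay above all controls. Both subunits of the platelet integrin missed the threshold. Itga2b stood at 89.0 ± 22.2 and 119 ± 16.4 (log2 change 0.44, adjusted p = 0.0865) and Itgb3, which vascular cells share, stood at 118 ± 17.0 and 161 ± 40.0 (log2 change 0.42, adjusted p = 0.0867). Itga2b passed without control 4 (adjusted p = 0.0214) and Itgb3 without dKO 2 (0.0206). Of 7 platelet markers (6 tested) 2 rose, against 21.2% of all genes tested. The markers summed to 33.9 to 121 in controls and 82.6 to 141 in dKO livers, with 121 in control 4 and at most 43.1 in the other controls. Their part in these values was not tested. Itgad, a leukocyte subunit that the rule left among the 20, had 1 read in the controls and 7 in the dKO livers, at or under the floor of 3 counts per library, and no fold is given.

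**Figure D3:**
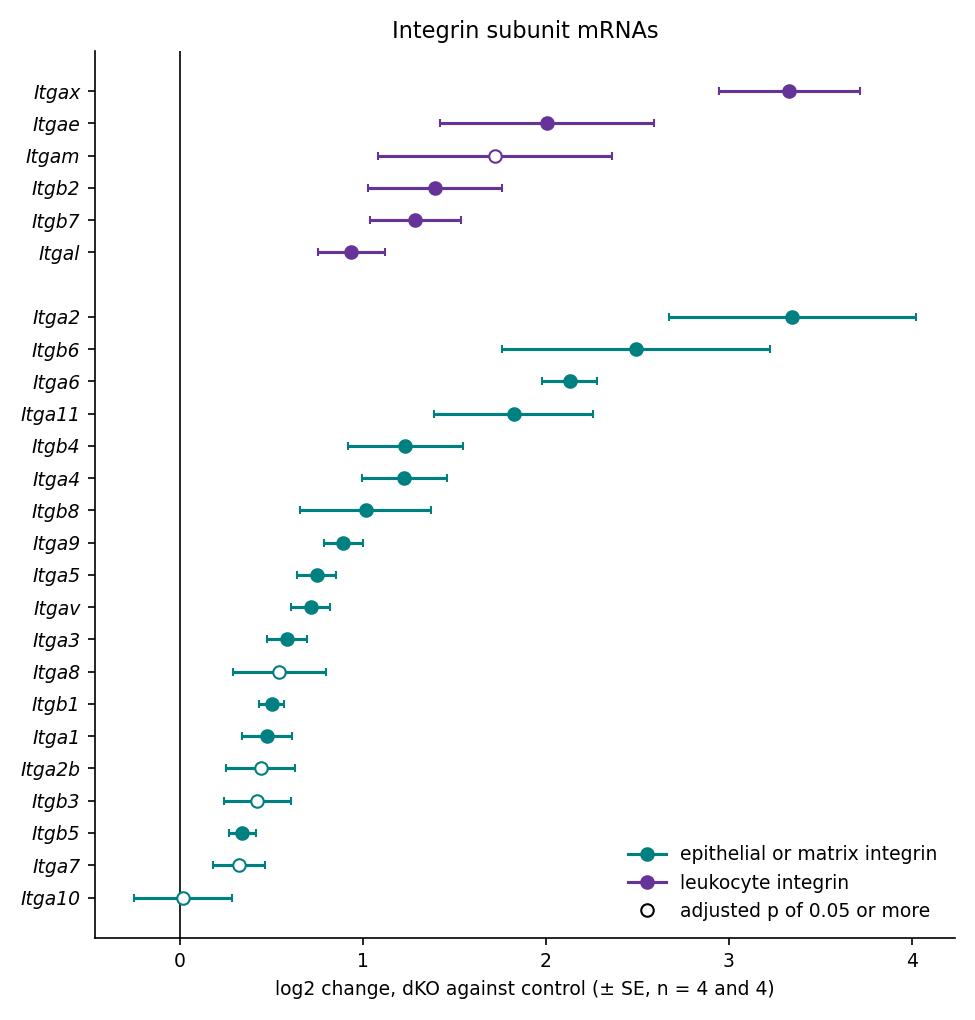
Change of each integrin subunit mRNA (x axis, log2 change of dKO against control with its SE, 4 livers a group) for the epithelial or matrix subunits except Itgad, which had too few reads, and the 6 leukocyte subunits (y axis). Open circles mark subunits with an adjusted p of 0.05 or more. Itga2 and Itgax have the largest changes, at 3.35 and 3.33, and Itga10 lies at 0.01.

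Ligands of these receptors were counted from a list of 15 genes, of which 14 were tested. Of these 11 rose, against 21.2% of all genes tested, 0 fell, against 17.0% of all, and 3 did neither. The median change was 1.5. Fibronectin (Fn1) rose from 34147 ± 2600.1 to 44882 ± 5896 (log2 change 0.39, adjusted p = 0.0182), and vitronectin (Vtn) stood at 52683 ± 4298 and 47913 ± 4472 (log2 change -0.14, adjusted p = 0.362). The call for Fn1 was lost in 2 of 18 alternatives, without control 3 or without dKO 4 (adjusted p up to 0.0601). Osteopontin (Spp1), bound by alpha v, alpha 4 and alpha 9 integrins, rose by 3.85 and Mfge8, a bridging ligand of alpha v integrins, by 3.02 on the log2 scale. Tgfb1, whose latent form alpha v integrins bind, read 215, 224, 229 and 286 among controls, against 614, 603, 635 and 687 among dKO livers (log2 change 1.42, adjusted p = 7.3e-07). Von Willebrand factor (Vwf), a ligand of the platelet integrin, rose from 235 ± 51.2 to 752 ± 359.

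Of the 6 leukocyte integrin subunits 5 rose, against 21.2% of all genes tested, and 0 fell, against 17.0% of all. The other 1 did neither, and the median change was 1.56. Under edgeR and DESeq2 0 of the 6 were called lower. At an unadjusted p under 0.05, 0 of the 6 were lower. A set of 6 is too small for a count of 0 lower to be set against a share of all genes. Without control 4 all 6 rose, and with DESeq2 4 did. Itgax, the CD11c subunit of dendritic cells and some macrophages (chromosome 7, 128129547 to 128150657, plus strand), read 14.4, 15.4, 15.8 and 60.6 among controls, against 169.9, 218, 246 and 263 among dKO livers. Control 4 stood above the other controls, and all dKO livers lay above it (log2 change 3.33 with an SE of 0.39, adjusted p = 2.7e-05). Without control 4 the change was 3.82. Itgb2, the beta subunit shared by LFA-1, Mac-1 and CD11c/CD18, read 153, 176, 137 and 571 among controls, against 512, 529, 451 and 823 among dKO livers (log2 change 1.39, adjusted p = 0.00918). Here control 4 lay within the dKO range. Without that liver the change of Itgb2 was 1.86 (adjusted p = 4.6e-05), whereas with all livers the call was lost with DESeq2 (0.0677) and with robust variances (0.072). Itgam, the Mac-1 subunit of neutrophils and monocytes, read 87.3, 39.0, 26.3 and 427 among controls, against 194, 283, 236 and 360.3 among dKO livers. Control 4 was the highest of all 8 livers, the other controls were the 3 lowest livers, and the difference did not pass (log2 change 1.72 with an SE of 0.64, adjusted p = 0.0502). Without control 4 its change was 2.53 (adjusted p = 0.000385), and over the alternatives its adjusted p ranged from 0.000385 to 0.447.

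Control 4 did not stand apart in the other leukocyte subunits. Itgal, the LFA-1 subunit of lymphocytes and other leukocytes, read 367, 335, 194 and 320.2 among controls, against 559, 488, 522 and 719.7 among dKO livers (log2 change 0.94, adjusted p = 0.00145). Itgb7, the partner of alpha 4 and alpha E in lymphocytes, read 56.5, 48.2, 24.2 and 54.9 among controls, against 103, 110.0, 102 and 115 among dKO livers, a narrow dKO range above all controls (log2 change 1.29, adjusted p = 0.00137). Itgae, the alpha E subunit that binds E-cadherin, read 1.03, 8.21, 7.36 and 12.6 among controls, against 20.1, 22.2, 31.5 and 23.3 among dKO livers (log2 change 2.01, adjusted p = 0.0162), and its adjusted p was 0.0515 without dKO 3. Itgal, Itgam and Itgax lie on 1 stretch of chromosome 7 (127296260 to 128150657, with Itgad beside Itgax).

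**Figure D4:**
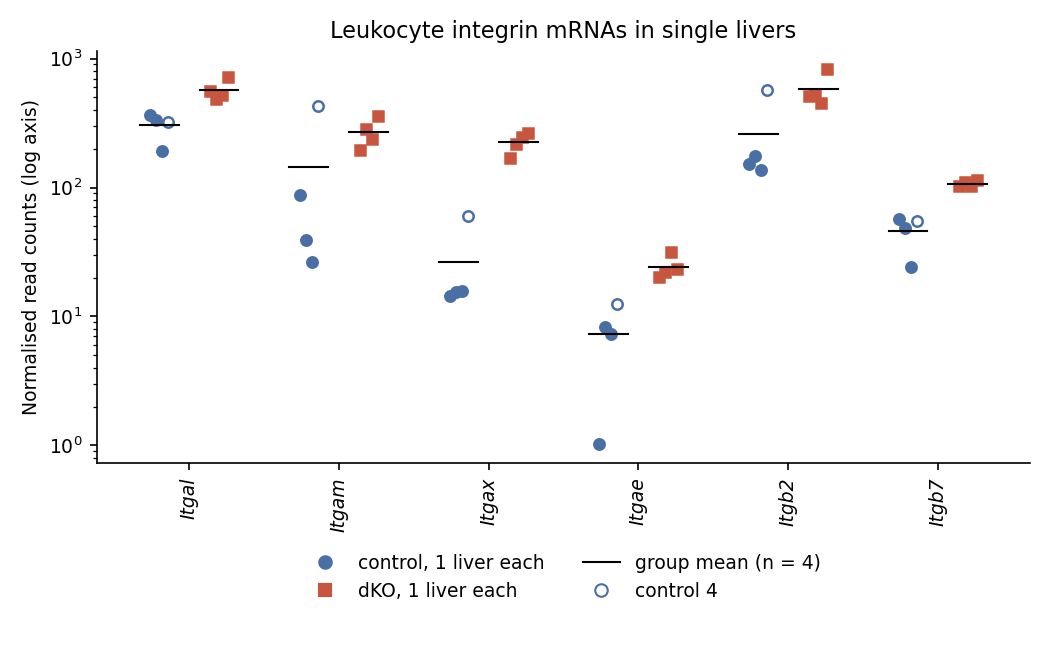
Levels of the 6 leukocyte integrin mRNAs (normalised read counts, log axis) in single livers, with controls as circles, dKO livers as squares, control 4 as the open circle and bars at group means. Control 4 lies at 427 for Itgam and 571 for Itgb2, within or above the dKO livers, and at 60.6 for Itgax, below them.

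Leukocyte markers were set beside these subunits. Of all genes tested 21.2% were higher and 17.0% lower, and the count of T and NK cell markers that rose did not exceed that share. Of 5 pan-leukocyte markers 4 rose, at a summed level of 2637 to 3633 in controls and 5135 to 6445 in dKO livers, and all 6 neutrophil markers rose, at 77.0 to 357 in controls and 635 to 979 in dKO livers. The highest control for neutrophil markers was control 4, at 357, against at most 149 in the other controls. Of 8 monocyte and macrophage markers 6 rose, at 7288 to 10991 in controls and 14532 to 21451 in dKO livers, and of 5 dendritic cell markers 3 rose, at 185 to 261 in controls and 281 to 363 in dKO livers. Of 7 T and NK cell markers 1 rose, at 40.0 to 64.6 in controls and 75.8 to 109 in dKO livers, and of 4 B cell markers 3 fell, at 45.7 to 71.8 in controls and 28.9 to 32.2 in dKO livers. No marker of these lists was at 0 in all livers. Their part in the leukocyte integrin changes was not tested.

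Ligands of leukocyte integrins rose in 6 of 9 genes, against 21.2% of all genes tested, 0 fell, against 17.0% of all, and 3 did neither. Madcam1, among those that rose, had 0 reads in the controls and 27 in the dKO livers. It passed the filter on low values only through the dKO livers, so that it could only rise. The median change was 0.96. Icam1, the counter-receptor of LFA-1 and Mac-1, read 165, 195, 182 and 246 among controls, against 570.2, 828, 752 and 818 among dKO livers (log2 change 1.91, adjusted p = 8.6e-07). Vcam1, bound by alpha 4 integrins, read 288, 276, 267 and 294 among controls, against 1032, 1152, 1178 and 1511 among dKO livers (log2 change 2.10, adjusted p = 5.1e-08). In both genes every dKO liver stood above every control. E-cadherin (Cdh1), F11r and Jam2 rose by 0.96, 0.96 and 1.06 on the log2 scale. Complement C3, whose fragment iC3b binds Mac-1, stood at 223314 ± 40809 and 303789 ± 45842 (log2 change 0.45, adjusted p = 0.0848).

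Inside the cell, integrin adaptors and signalling genes were counted from a list of 33. Of these 14 rose, against 21.2% of all genes, 5 fell, against 17.0% of all, and 14 did neither. Past 2-fold 7 were higher, against 12.8% of all genes, and 0 lower, against 3.97% of all. The median change was 0.23. The talin gene Tln1, whose product activates integrins at the beta tail, stood at 2443 ± 239 and 2407 ± 270.0 (log2 change -0.02, adjusted p = 0.881), and the parvin gene Parva stood at 1826 ± 101 and 1837 ± 95.1 (log2 change 0.01, adjusted p = 0.935). Fermt2, the kindlin of non-blood cells, read 2298, 2402, 2309.8 and 2253 among controls, against 1423, 1378, 1522 and 1374 among dKO livers and fell without overlap (log2 change -0.70, adjusted p = 5.0e-06). The tensin Tns2 fell from 2153 ± 294 to 1586 ± 229 (log2 change -0.44, adjusted p = 0.0102), and Tns1 stood at 3238 ± 85.3 and 3058 ± 301 (log2 change -0.09, adjusted p = 0.424). The actin crosslinker Actn4 rose from 2988 ± 192 to 3512 ± 123 (log2 change 0.23, adjusted p = 0.0181), a call lost without control 2 or without dKO 4 (adjusted p up to 0.0557).

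Some levels are uncertain because annotated genes share exon bases and no source used here gives the strand setting of the counting. Gm49368, which is not among the tabulated genes, shares 3450 exon bases with Itgam on the same strand, Gm42957 shares 1739 with Itga10 and Gm49395 shares 685 with Itga1. On the opposite strand Cerkl shares 1124 bases with Itga4.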

How the data were processed

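RNA from the livers of 8 mice was sequenced, and the mice carry numbers 1 to 4 in each group per the labels. The signal values deposited by the authors are gene read counts scaled by 1 size factor per library, although the table's name says FPKM: in each library they all divide, within 0.001, to whole numbers by the same step (100% of values), with no division by gene length. This division recovered the reads. The submitters' processing notes name fastp, HISAT2 2.0.5, featureCounts 1.5.0-p3, DESeq2 and mm10, without their roles. Annotation, strand setting and filters: not given in the sources used here. The floor for a gene at 0 was 3 counts in a library (counting error only). No library copied another of its group, the chi-square of their counts being 13.9 to 29.9 per gene.

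Symbols were found for 21796 of 22052 identifiers. Genes with a mean of at least 0.5 (20055) entered limma 3.58.1 (R 4.3.3, eBayes with trend) as log2(value + 0.5), 2-sided, Benjamini-Hochberg adjusted over all of them, with calls under 0.05. The design had allowed for FPKM, and its log-scale test was used unchanged. The fits were tested on simulated data. Recovered counts were tested with edgeR 4.0.16 and DESeq2 1.42.0 as alternatives. Further alternatives changed the pseudocount, the filter, the scaling and the variances, added the mouse number as a block, or left out 1 liver. The members and lists were chosen with earlier results of these data known. Members are described (1 is not reported here), and of each partner list the 6 genes (or fewer) with the highest mean level.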

Additional observations from a re-analysis of the deposited data

Results flagged for a closer look

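Among 162 groups of 4 values (members, named partners, deleted genes and marker sums), 14 held 1 liver far from the other 3. For normally distributed values chance flags about 1 in 20 such groups. The values here were untransformed and the groups share the same livers, so that this rate is only a guide. In 9 of the 14 that liver was control 4, as the highest control. These were Itgam at 427, Itgb2 at 571, Itgax at 60.6, Itgb6 at 6.86, Itgad at 1.14, Lama3 at 93.8, the integrin ligands Spp1 at 1247 and Mfge8 at 294, and the platelet markers, summed, at 121. Lama3 differs from the others in this set in that its high value in control 4 lies away from the dKO livers, where it was lower. The dKO 1 liver was the lowest of its group for Itgav, at 635, and for Col4a1, at 3536. The dKO 4 liver was the highest for Sdc4, at 7915, and for Zfp36l1, at 267. Control 3 was the lowest control for Zfp36l2, at 997. What set these livers apart was not tested.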

How the results depend on the processing

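Counts of laminins, matrix integrins and leukocyte integrins called higher stayed within 1.5 times the values above under the 18 alternatives, as did the counts over all genes. Over the fits without 1 liver, 13 to 14 matrix integrins and 4 to 6 leukocyte integrins were higher. Without control 4 these counts were 14 and 6. Of 29 called members 23 were called under every alternative that tested them, and Itgae, Itgb2, Itgb4, Itgb6, Itgb8 and Lamb2 were not. Of 663 values of single members under an alternative, 627 kept direction and side of the threshold, 20 lost the call, 9 gained one and 7 changed sign. All 7 belonged to Itga10, which no setting called, at -0.43 with quantile normalization, -0.00031 with TMM scaling, -0.010 with edgeR and -0.10 to 0.16 without 1 liver. Quantile normalization moved the median change of all genes from 0.03 to -0.08, but its shift differed between genes and is not a single offset. Itga10 went from 0.01 to -0.43 and Lamb3 from -0.22 to -0.53. The more abundant Itgb1 went from 0.50 to 0.70 and Col18a1 from -0.56 to -0.22. Among partners called neither way, quantile normalization turned Vtn to 0.054, Tln1 to 0.089 and Tns1 to 0.062, TMM and edgeR turned Parva to -0.0054 and -0.0056, and leaving out 1 liver gave Tln1 -0.090 to 0.034 and Parva -0.014 to 0.047. The cause of these changes of sign was not tested. Replicate numbers gave no clear pairing of the mice (correlation of deviations of same-numbered mice -0.07 to 0.08 over 14132 genes). Controls 1 and 4 deviated most like the dKO mouse of the same number, and controls 2 and 3 most like one of another number. With the mouse number as a block, 15 matrix and 6 leukocyte integrins were higher, so that the block moved no count by over 1.5 times. It added calls for Itga8 (adjusted p = 0.0361), Itgb3 (0.0441) and Itgam (0.0174) and removed that for Itgb8 (0.0592). Depth limits Itga2, Itga11, Itgad, Itgae and Itgb6, which had 1 to 27 reads in the controls together. It also limits Lamc3, which had 40 reads in the dKO livers together.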

Other observations

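Per length, the alpha subunits whose products can pair with beta 1 (Itga1 to Itga11 and Itgav) summed to a smaller level than Itgb1 in every liver. The ratio of that sum to Itgb1 was 0.407 to 0.478 in controls and 0.492 to 0.580 in dKO livers, so that the groups did not overlap, a pattern seen after the values were known and given with no test. The sum of Itgal, Itgam and Itgax over Itgb2 was 0.871 to 1.79 in controls and 1.01 to 1.39 in dKO livers. The ratio of Itgal alone to Itgb2 was 0.319 in control 4, below the 0.805 to 1.36 of controls 1 to 3, and 0.497 to 0.658 in dKO livers.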
